A study of Mus musculus with 12 samples.

Results

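The genes described here are 8 mouse growth factor and signalling genes, Sema4d, Sphk1, Pdgfa, Pdgfb, Efnb2, Vegfa, Igf1 and Cthrc1, whose products are known to pass from osteoclasts or macrophages to the cells around them. They were found by mouse symbol among the 54532 Ensembl genes of the deposited expression table, and all 8 were present. Expression was measured by RNA sequencing of total RNA in bone marrow derived macrophages and in osteoclasts grown from such macrophages. There were 12 libraries in 4 groups of 3. Of the 8 genes, 7 reached 1 FPKM (fragments per kilobase of exon, on a scale described with the processing) in at least 3 libraries and were tested among 11335 genes, and Cthrc1 did not.

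All 4 groups came from marrow of WT mice and were cultured with CMG, a source of the macrophage growth factor M-CSF. Untreated macrophages were taken on day 5 without RANKL, the cytokine that turns macrophages into osteoclasts. LPS-treated macrophages had the same culture and 3 h of lipopolysaccharide (LPS, a bacterial cell wall component) at 100 ng/mL. Untreated osteoclasts were taken on day 5 with RANKL, given as 100 ng/mL in the sample source and as a range in the culture protocol. LPS-treated osteoclasts had RANKL and the same 3 h of LPS at 100 ng/mL. The labels describe no sort of the cultures, and strain, sex and age of the mice are not given in the sources used here. Nothing in the labels says that the 3 libraries of a group came from separate animals or cultures, so p-values measure the spread between these libraries, which may be technical.

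Bone is resorbed by osteoclasts and rebuilt by osteoblasts, and signals released or displayed by osteoclasts and marrow macrophages are known to act on osteoblasts, their progenitors and vessel cells. Sema4d is a membrane semaphorin that acts through plexin B1 to restrain osteoblasts, whereas Efnb2 is a membrane ligand for Eph receptors on osteoblasts, and Sphk1 makes the lipid signal sphingosine 1-phosphate. Pdgfa and Pdgfb encode the chains of platelet-derived growth factor, Vegfa encodes an endothelial growth factor, Igf1 a growth factor for osteoblasts and muscle, and Cthrc1 a secreted glycoprotein linked to bone formation.

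The libraries held 15651770 to 20281456 assigned reads, recovered from the steps of the deposited values. The labelled cell types were checked against marker lists. The 12 osteoclast markers summed to 29430 to 32440 FPKM in osteoclasts and to 52.7 to 95.3 FPKM in macrophages, and all 12 were at 1 FPKM or more in every osteoclast library. The 12 macrophage markers summed to 14654 to 18090 FPKM in macrophages and to 2812 to 3696 FPKM in osteoclasts, where 10 of 12 stayed at 1 FPKM or more in every library. Most of the macrophage sum was Lyz2, with means of 11330 FPKM in untreated macrophages and 1327 FPKM in untreated osteoclasts. Cd68, on the same list, went the other way, with 670 and 1402 FPKM. Sums of the T cell, B cell, mast cell, dendritic cell and endothelial lists were at most 8.21 FPKM in any library. The neutrophil list reached 16.4 FPKM in 1 library of LPS-treated macrophages. Single markers of these lists differed between the groups. Cd3d and Cd3g were at 0, but Cd5, also a T cell marker, had 0.118 FPKM in untreated macrophages and 7.62 FPKM in untreated osteoclasts. With LPS its means were 0.11 and 7.65 FPKM. In untreated and LPS-treated macrophages the T cell marker Lck had 0.00484 and 2.19 FPKM, and the dendritic cell marker Xcr1 0.15 and 5.31 FPKM. Mitochondrial genes took 1.27 to 1.62% of reads in macrophages and 5.16 to 6.18% in osteoclasts, and the part of this in the differences between the cell types was not tested. In such bulk samples fewer cells of a type and less RNA per cell cannot be told apart.

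The 8 genes lie on 7 chromosomes (build GRCm38, GENCODE M21 annotation). Sema4d (ENSMUSG00000021451) is at chr13:51685529-51793747 on the minus strand, Sphk1 (ENSMUSG00000061878) at chr11:116530925-116536674 on the plus strand, and Pdgfa (ENSMUSG00000025856) at chr5:138976014-138997370 on the minus strand. Pdgfb (ENSMUSG00000000489) is at chr15:79995874-80014977 on the minus strand and Cthrc1 (ENSMUSG00000054196) at chr15:39076932-39087121 on the plus strand. Efnb2 (ENSMUSG00000001300) is at chr8:8617434-8661242 on the minus strand, Vegfa (ENSMUSG00000023951) at chr17:46016993-46032369 on the minus strand, and Igf1 (ENSMUSG00000020053) at chr10:87858265-87937042 on the plus strand. Pdgfa shares 813 exon bases, 26.1% of its exon sequence, with the antisense gene 6330403L08Rik, and Sphk1 shares 192, or 4.0%, with the antisense gene Gm29292. Whether strand was used in counting is not given in the sources used here, so both genes' values are uncertain to that extent.

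Promoters are shown for 4 genes that changed with LPS in at least 1 cell type, as the stretch of 250 bases before a start site. For Sema4d and Sphk1 this is an internal start site, within the span of the gene given above. Which start site was in use was not measured. RefSeq start-site windows (build GRCm38.p6) matched 6 of the 8 genes with 14 windows, and the windows printed are the 4 whose 250 bases touch no GENCODE M21 exon, 1 of 2 for Vegfa, 1 of 5 for Sphk1, 1 of 3 for Sema4d and the only one for Efnb2. Each reads 5′ to 3′ along the gene's strand, from chr17:46032378-46032627 (minus) for Vegfa, chr11:116532194-116532443 (plus) for Sphk1, chr13:51739447-51739696 (minus) for Sema4d, and chr8:8661243-8661492 (minus) for Efnb2. Capitals mark matches, on either strand, to a short form of the NF-kB site (GGG and CC around any 5 bases), TGANTCA (AP-1), ACGTG (the core of the hypoxia response element) and TGACGTCA (the cyclic AMP response element).
Vegfa: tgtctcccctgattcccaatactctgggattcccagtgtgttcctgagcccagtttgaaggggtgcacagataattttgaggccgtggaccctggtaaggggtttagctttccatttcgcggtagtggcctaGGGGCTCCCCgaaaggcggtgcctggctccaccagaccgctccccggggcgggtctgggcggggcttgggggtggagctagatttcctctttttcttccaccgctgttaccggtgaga
Sphk1: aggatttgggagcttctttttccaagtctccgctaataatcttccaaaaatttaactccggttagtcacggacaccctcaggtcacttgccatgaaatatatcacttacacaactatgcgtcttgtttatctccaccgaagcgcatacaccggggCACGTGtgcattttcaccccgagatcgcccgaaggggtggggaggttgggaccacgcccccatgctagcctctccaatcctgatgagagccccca
Sema4d: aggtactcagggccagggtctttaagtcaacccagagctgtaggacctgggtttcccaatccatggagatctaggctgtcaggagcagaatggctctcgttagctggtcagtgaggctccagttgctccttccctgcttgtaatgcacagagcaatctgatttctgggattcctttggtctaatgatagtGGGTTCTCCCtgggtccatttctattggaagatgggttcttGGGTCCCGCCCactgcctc
Efnb2: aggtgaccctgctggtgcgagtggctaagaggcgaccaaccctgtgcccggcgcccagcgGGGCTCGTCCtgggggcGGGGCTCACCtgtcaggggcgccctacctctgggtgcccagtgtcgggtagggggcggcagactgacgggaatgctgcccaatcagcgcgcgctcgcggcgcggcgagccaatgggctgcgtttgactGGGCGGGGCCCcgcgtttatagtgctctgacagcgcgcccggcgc
Matches are given by position from the start site, with -1 as the last base before it. The Vegfa window held GGGGCTCCCC at -118 to -109, which matches the NF-kB short form on both strands. The Sphk1 window held a pair of ACGTG matches that overlap on opposite strands, at -95 to -90, and a further NF-kB short form lay after the start site, at 19 to 28. The Sema4d window held GGGTTCTCCC at -60 to -51, matching on both strands, and overlapping matches on opposite strands between -19 and -9. The Efnb2 window held NF-kB short forms at -190 to -181 and at -173 to -164, and an overlapping pair between -45 and -35. GGAAA (the core of the NFAT site), which is not capitalised, had 1 match in each of the Sphk1 and Sema4d windows and 2 in the Vegfa window, and no match of one motif overlapped that of another. These short patterns are common. Of 32851 promoter windows of 300 bases, 50.8% held the NF-kB short form, 61.3% GGAAA, 19.6% ACGTG, 7.8% TGANTCA and 1.8% TGACGTCA, against 11, 12, 4, 4 and 0 of the 14 windows of these genes. Some of the 14 windows overlap, so a Sphk1 match can be counted in a pair of them, and the 4 windows with TGANTCA hold it at 3 places, as do the 4 with ACGTG. A match describes letters only, and binding was not measured.

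LPS changed 5 of the 8 genes in macrophages and 3 in osteoclasts. In macrophages Sphk1 rose 9.94-fold and Sema4d 1.88-fold, while Vegfa fell 1.79-fold and Pdgfb 1.24-fold. Igf1 rose 1.47-fold there on the deposited scale but not on TPM (a rescaling to equal library sums) or after quantile normalization. On those other scales the Sema4d rise was smaller and the Pdgfb fall larger, and both kept their calls. In osteoclasts Vegfa rose 1.54-fold and Pdgfb 1.23-fold, and Efnb2 fell 1.43-fold, but the Pdgfb and Efnb2 calls were lost on TPM and under other alternatives given with each gene. A gene is called here, and said to rise or fall, when limma's Benjamini-Hochberg adjusted p over all 11335 genes was under 0.05. In macrophages 3 of the 7 tested were called higher and 2 lower, against 69.9% of all tested genes (36.8% higher, 33.1% lower). In osteoclasts 2 were called higher and 1 lower, against 17.7% of all tested genes (11.1% higher, 6.59% lower). The interaction is the LPS effect of a gene in osteoclasts less its effect in macrophages. It was called for 5 of the 7 tested, with 2 above 0 and 3 below, against 56.6% of genes called, 26.6% above 0 and 30.0% below. Efnb2 reached 1 FPKM in 6 libraries, all of osteoclasts, so it could enter the tests only through the cell type in which it was high, and the counts over these genes are a description.

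**Figure D1:**
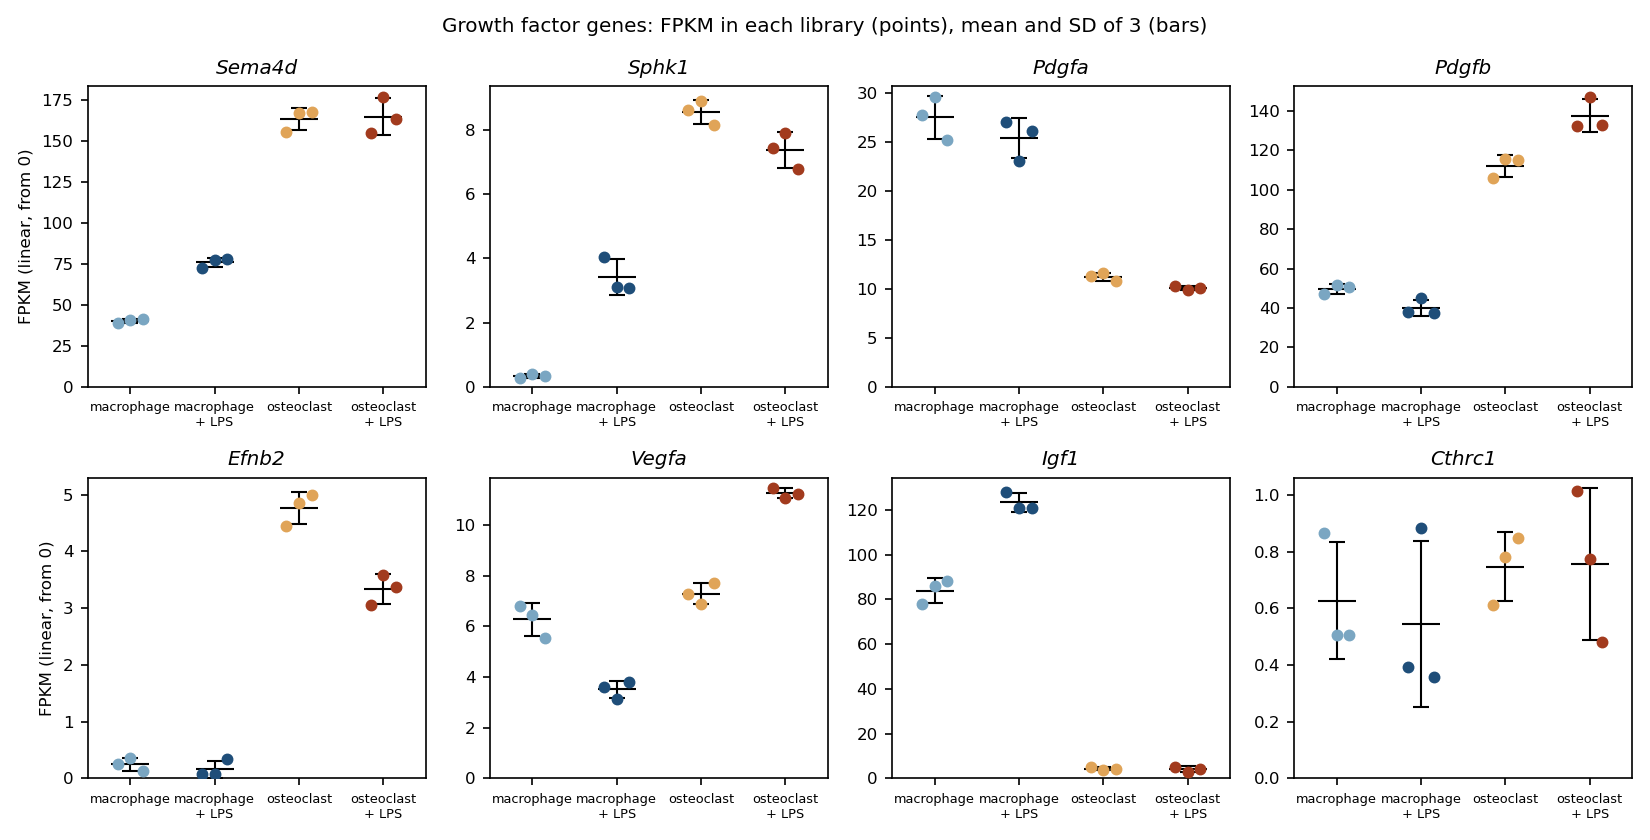
FPKM of each growth factor gene in the 12 libraries, 1 panel per gene, with a linear axis from 0. Points are libraries and bars the mean and SD of 3. The Vegfa panel shows the lowest points in LPS-treated macrophages, at 3.14 to 3.79 FPKM, and the highest in LPS-treated osteoclasts, at 11.1 to 11.5 FPKM.

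Vegfa, which encodes the main growth factor for endothelial cells and a known target of hypoxia-inducible factors, went down with LPS in macrophages and up with LPS in osteoclasts. Its level in untreated macrophage replicates 1 to 3 was 6.82, 6.45 and 5.54 FPKM, and after LPS it was 3.60, 3.14 and 3.79 FPKM. In untreated osteoclasts it was 7.28, 6.88 and 7.72 FPKM, and after LPS 11.5, 11.1 and 11.2 FPKM. No 2 groups overlapped, and the order from low to high was LPS-treated macrophages, untreated macrophages, untreated osteoclasts and LPS-treated osteoclasts. The means were 6.27 ± 0.655, 3.51 ± 0.331, 7.29 ± 0.420 and 11.2 ± 0.195 FPKM in untreated and LPS-treated macrophages and untreated and LPS-treated osteoclasts (SD, n = 3). On the log2(FPKM + 1) scale, used for every log2 difference given here, the LPS effect was -0.69 (SE 0.07, limma adjusted p = 3.7e-06) in macrophages. In osteoclasts it was 0.56 (SE 0.07, limma adjusted p = 0.000188). The interaction was 1.25 (SE 0.10, limma adjusted p = 7.42e-07), or 1.92 on TPM. The cell types were closest without LPS, with a difference of 0.19 (SE 0.07, limma adjusted p = 0.03), and they were 1.44 apart (SE 0.07, limma adjusted p = 1.65e-09) with LPS. The difference without LPS was not stable. It was 0.12 (adjusted p = 0.142) without untreated macrophage replicate 3 and lost its call without untreated osteoclast replicate 1 (0.0624) or 3 (0.107), with no filter (0.0585) and with only these groups in the fit (0.0515), and it was -0.19 (adjusted p = 0.048) on values rescaled to TPM.

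Pdgfb, whose protein forms the PDGF-BB dimer that draws pericytes and osteoprogenitors, had LPS effects of the same signs as Vegfa, closer to 0. Its level was 46.9, 51.8 and 50.8 FPKM in untreated macrophages and 38.1, 44.8 and 37.3 FPKM after LPS. It was 106, 116 and 115 FPKM in untreated osteoclasts and 133, 147 and 133 FPKM after LPS. The groups did not overlap, and the osteoclast libraries were all above the macrophage libraries. LPS gave a log2 difference of -0.31 (SE 0.07, limma adjusted p = 0.00206) in macrophages and 0.29 (SE 0.07, limma adjusted p = 0.0153) in osteoclasts, and the interaction was 0.60 (SE 0.10, limma adjusted p = 0.000296), or 1.18 on TPM and 1.10 after quantile normalization. The rise in osteoclasts was not called without untreated osteoclast replicate 1 (0.25, adjusted p = 0.0631), on TPM (0.22, adjusted p = 0.0804) or after quantile normalization (0.18, adjusted p = 0.104). The fall in macrophages was -0.96 on TPM and -0.92 after quantile normalization. Being lower with LPS in macrophages and higher with LPS in osteoclasts, as Vegfa and Pdgfb were, was a pattern picked out after the values were seen, and 90 of the 11335 genes had it, or 0.794%.

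**Figure D2:**
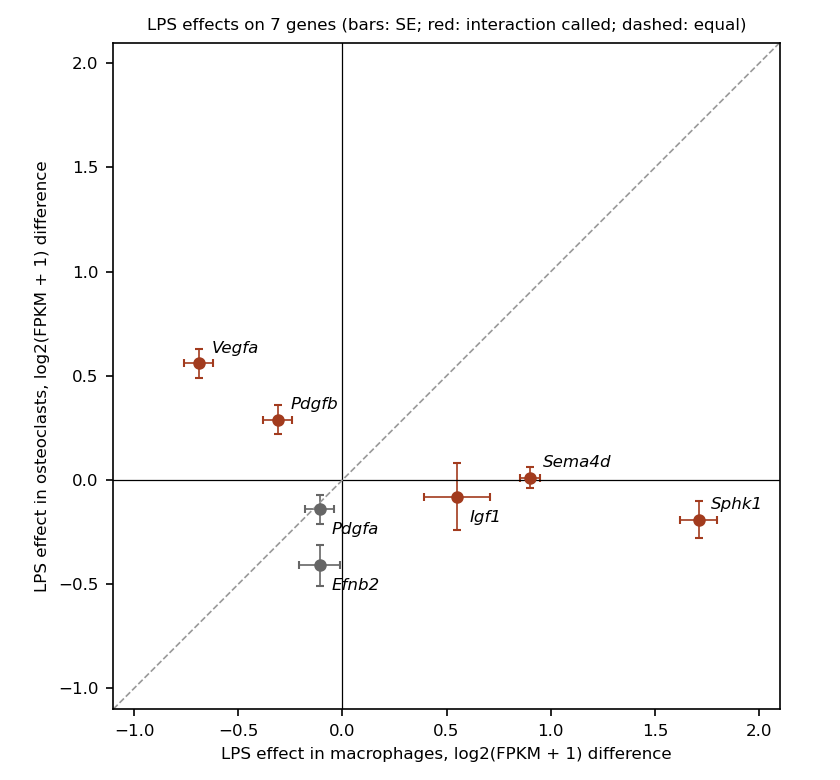
LPS effect in osteoclasts (vertical axis) against the LPS effect in macrophages (horizontal axis), as log2(FPKM + 1) differences with SE bars, for the 7 tested genes. Red points had a called interaction and the dashed line marks equal effects. Vegfa (-0.69 and 0.56) and Pdgfb (-0.31 and 0.29) lie in the upper left, and Sphk1 (1.71 and -0.19) lies farthest to the right.

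Pdgfa, which encodes the other classical PDGF chain, was higher in macrophages and did not pass the test for LPS in either cell type. It stood at 27.8, 29.7 and 25.3 FPKM in untreated macrophages and at 27.1, 23.1 and 26.2 FPKM after LPS, and these 2 groups overlapped. It stood at 11.4, 11.6 and 10.8 FPKM in untreated osteoclasts and at 10.3, 9.94 and 10.1 FPKM after LPS, with every treated library just under the untreated ones. The log2 difference with LPS was -0.11 (95% interval -0.25 to 0.03, limma adjusted p = 0.15) in macrophages and -0.14 (95% interval -0.29 to 0.00, limma adjusted p = 0.166) in osteoclasts. Without untreated macrophage replicate 3 the first was -0.17 (adjusted p = 0.0391). On TPM the effect in macrophages was -0.75 (adjusted p = 1.96e-07) and after quantile normalization -0.58 (adjusted p = 5.79e-06), and that in osteoclasts was -0.22 (adjusted p = 0.0285) and -0.21 (adjusted p = 0.038). The antisense gene 6330403L08Rik, which shares exon bases with Pdgfa, had means of 2.75, 1.59, 0.948 and 0.667 FPKM in the 4 groups in the order above. Its part in the Pdgfa values was not tested.

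The other genes of the PDGF and VEGF families were given by a list of 14, of which 8 were tested. LPS raised 4 and lowered 2 of these in macrophages (3 and 4 on TPM), with a median log2 difference of 0.19 beside 0.02 over all tested genes (-0.28 beside -0.55 on TPM). It raised 4 and lowered 1 in osteoclasts (median 0.18 beside 0.01). Vegfc, which encodes the lymphatic growth factor, had 0.0766 ± 0.0187 FPKM in untreated macrophages and 7.70 ± 0.368 FPKM in untreated osteoclasts (SD, n = 3). The log2 difference was 3.01 (SE 0.08), given with no test, since Vegfc entered the fit only through the osteoclast libraries. Vegfb, a close relative of Vegfa, had 12.6 and 46.8 FPKM in the same groups, and LPS lowered it by 0.30 on the log2 scale in macrophages (limma adjusted p = 0.000725). The co-receptor genes went opposite ways between the cell types. Nrp1 had 40.0 FPKM in untreated macrophages and 1.36 FPKM in untreated osteoclasts, and Nrp2 had 70.5 and 153 FPKM. LPS raised Nrp2 in macrophages to 143 FPKM (log2 difference 1.01, limma adjusted p = 9.34e-10). The receptor genes were low. Flt1, Flt4 and Pdgfra stayed under 0.3 FPKM in every group mean, Kdr had 1.72 FPKM in untreated macrophages and 0.222 FPKM in untreated osteoclasts, and Pdgfrb had 1.11 and 0.0216 FPKM.

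Hypoxia-response genes were described beside Vegfa. Of 20 on the list 17 were tested, and LPS raised 8 and lowered 7 in macrophages (median 0.02, equal to that of all genes; on TPM 6 and 10, with -0.53 beside -0.55). It raised 6 and lowered 1 in osteoclasts (median 0.10 beside 0.01; 4 and 3 on TPM and after quantile normalization). Hif1a, which encodes an oxygen-regulated transcription factor subunit, rose in macrophages, where Vegfa fell, from 22.6 to 63.3 FPKM (log2 difference 1.44, limma adjusted p = 1.67e-10). It also rose in osteoclasts, from 14.7 to 23.1 FPKM (0.62, limma adjusted p = 5.67e-06). Pfkfb3, an activator of glycolysis, rose from 6.31 to 61.1 FPKM in macrophages and from 0.871 to 2.64 FPKM in osteoclasts. Adm, which encodes the vessel-dilating peptide adrenomedullin, had 0.160 and 7.24 FPKM in untreated and LPS-treated macrophages, given with no test, since the treated group brought it into the fit. Pfkfb4, a relative of Pfkfb3, fell from 9.74 to 3.30 FPKM in macrophages, and Egln1, the oxygen sensor that marks Hif1a protein for removal, fell from 11.3 to 4.82 FPKM.

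Sphk1 encodes the kinase that makes sphingosine 1-phosphate, a lipid that recruits and supports osteoblast progenitors. It had 0.280, 0.410 and 0.339 FPKM in untreated macrophages, from 31 to 46 reads, and 4.05, 3.10 and 3.07 FPKM after LPS, from 206 to 247 reads. Untreated osteoclasts had 8.61, 8.90 and 8.15 FPKM, and LPS-treated osteoclasts 7.44, 7.91 and 6.77 FPKM. The macrophage groups lay far apart, while the osteoclast groups lay next to each other without overlap. The LPS effect in macrophages was 1.71 (SE 0.09, limma adjusted p = 3.3e-09) as a log2 difference, and the added 1 FPKM shrinks it for a gene this low. It was 2.98 with a pseudocount of 0.1 and 3.29 in voom on the recovered reads. In osteoclasts it was -0.19 (95% interval -0.38 to 0.00, limma adjusted p = 0.153), and in voom -0.22 (adjusted p = 0.048). The interaction was -1.90 (SE 0.12, limma adjusted p = 7.8e-08), or -3.51 in voom. Untreated osteoclasts had 24.9 times the level of untreated macrophages, and with LPS the ratio was 2.16. The antisense gene Gm29292 was listed at 0 in every macrophage library and had means of 0.274 and 0.218 FPKM in untreated and LPS-treated osteoclasts.

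The list for the sphingosine 1-phosphate pathway held 21 genes, of which 14 were tested. Osteoclasts were higher for 6 and lower for 7 without LPS (median -0.20 beside 0.00 over all genes), and in osteoclasts LPS raised 2 and lowered 7 (median -0.16 beside 0.01). In macrophages LPS raised 7 and lowered 4 (median 0.12 beside 0.02), but this balance turned to 2 and 11 on TPM (median -0.48 beside -0.55) and to 5 and 8 after quantile normalization (-0.22 beside -0.14). The exporter gene Spns2, which carries sphingosine 1-phosphate out of the cell, differed most. It had 0.0565 ± 0.0261 FPKM in untreated macrophages and 48.9 ± 1.88 FPKM in untreated osteoclasts (SD, n = 3), and the log2 difference was 5.56 (SE 0.05), again with no test, since Spns2 entered the fit as Vegfc did. LPS-treated macrophages held 3 Spns2 reads or fewer in each library, and LPS-treated osteoclasts were at least 833-fold higher. LPS raised Sphk1 in macrophages, where Spns2 had means of 0.0565 and 0.0280 FPKM without and with it, too low for a change to be read. S1pr1, a receptor for the lipid, was a macrophage gene that fell with LPS, from 61.5 ± 2.53 to 4.37 ± 0.302 FPKM (SD, n = 3; log2 difference -3.54, limma adjusted p = 1.82e-13). In osteoclasts it fell from 1.76 to 0.277 FPKM. Sphk2, the second sphingosine kinase, did not rise with LPS as Sphk1 did, and fell from 12.8 to 9.41 FPKM in macrophages (-0.40, limma adjusted p = 0.000123). Sgpl1, the lyase that degrades the lipid, was high in all 4 groups, at 92.8, 104, 113 and 113 FPKM. Plpp1 and Plpp3 encode phosphatases that act on lipid phosphates outside the cell, and they differed in pattern. Plpp1 had 1.70 FPKM in untreated macrophages and 27.3 FPKM in untreated osteoclasts, and Plpp3 had 0.925 and 5.37 FPKM in untreated and LPS-treated macrophages. Exon sequence of Sphk2 and of Plpp1 (25.8% of its exon bases, with Mtrex) is shared with genes on the opposite strand, so their values are uncertain.

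**Figure D3:**
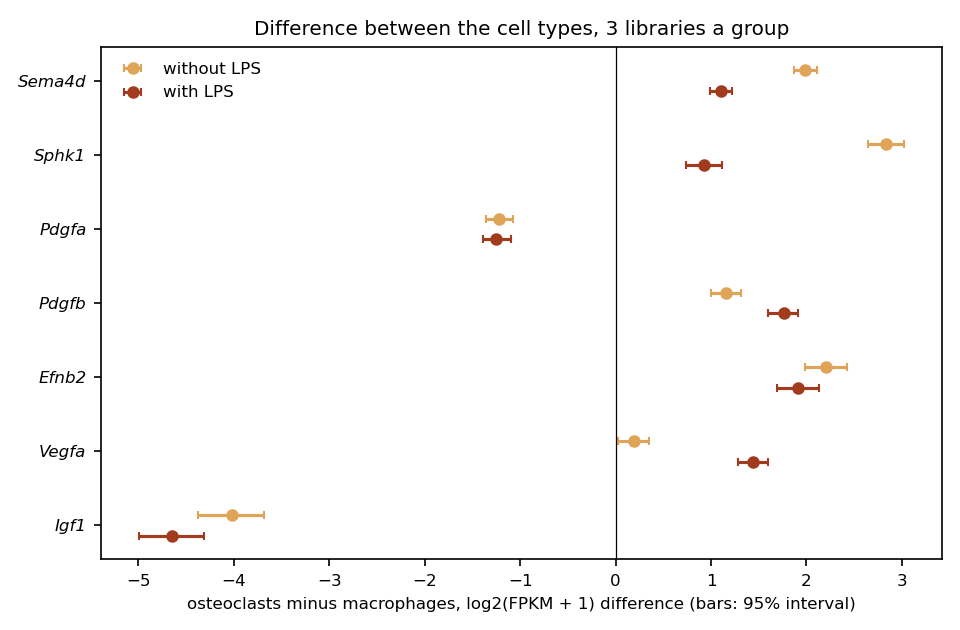
Difference between osteoclasts and macrophages, without LPS (orange) and with LPS (red), as log2(FPKM + 1) differences with 95% intervals, 3 libraries a group. Sphk1 drops from 2.83 to 0.93 and Vegfa goes from 0.19 (-0.19 on TPM) to 1.44, while Pdgfa stays near -1.2 and Igf1 lies at -4.02 and -4.65.

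Sema4d was the most abundant of the 8 genes in osteoclasts. Its level was 38.9, 40.7 and 41.4 FPKM in untreated macrophages and 72.7, 77.4 and 77.9 FPKM after LPS. In osteoclasts it was 156, 167 and 168 FPKM without LPS and 155, 177 and 163 FPKM with it. The macrophage groups were apart from each other, and the osteoclast groups overlapped. The LPS effect was 0.90 (SE 0.05, limma adjusted p = 1.48e-08) in macrophages and 0.01 (95% interval -0.10 to 0.13, limma adjusted p = 0.907) in osteoclasts, and the interaction was -0.88 (SE 0.07, limma adjusted p = 9.08e-07). The interaction was smaller on TPM (-0.32, adjusted p = 0.00689) and after quantile normalization (-0.31, adjusted p = 0.00638). The rise in macrophages was smaller on other scales but kept its call, at 0.26 on TPM and 0.22 after quantile normalization. Osteoclasts were 4.05 times as high as macrophages without LPS and 2.17 times as high with it. By mean share of the summed FPKM of the 8 genes, Sema4d made up 19.3% in untreated macrophages, 27.9% in LPS-treated macrophages, 52.3% in untreated osteoclasts and 48.6% in LPS-treated osteoclasts.

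On the list of semaphorins and plexins, 13 of 30 genes were tested. Osteoclasts were higher for 7 and lower for 5 without LPS (median 0.24 beside 0.00), or for 5 and 6 on TPM (median -0.07 beside -0.38). LPS raised 5 and lowered 5 in macrophages (median 0.02, as over all genes; on TPM 4 and 8, with -0.34 beside -0.55) and raised 4 and lowered 1 in osteoclasts (median 0.01, as over all genes). Plxnb1, the classical Sema4d receptor gene, was at 0.0655 FPKM or less in every group mean. Plxnb2, which encodes another plexin that binds Sema4d, had 90.5 ± 0.424 FPKM in untreated macrophages and 66.2 ± 5.13 FPKM in untreated osteoclasts (SD, n = 3), and the log2 difference was -0.45 (limma adjusted p = 1.14e-05). Cd72, a receptor for Sema4d on immune cells, had 21.1 and 15.8 FPKM in those groups, but 41.6% of its exon bases are shared with Tesk1 on the opposite strand. Other class 4 semaphorins had other patterns. Sema4c had 10.1 ± 0.806 FPKM in untreated macrophages, rose to 51.3 ± 5.59 FPKM with LPS (SD, n = 3; log2 difference 2.23, limma adjusted p = 9.2e-11) and had 0.163 FPKM in untreated osteoclasts. Sema4a rose with LPS in both cell types, from 1.43 to 8.99 FPKM in macrophages and from 0.472 to 3.07 FPKM in osteoclasts. Among genes higher in osteoclasts, Plxnd1 had 23.8 and 166 FPKM, Plxna4 0.451 and 15.4 FPKM, and Sema7a 1.95 and 11.7 FPKM in untreated macrophages and osteoclasts. Plxna4 is given with no test, since it entered the fit only through the osteoclast libraries.

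Several of the 8 factors are made as membrane or precursor proteins that proteases release or process. Of 17 sheddases and processing proteases 12 were tested, and LPS raised 8 and lowered 4 in macrophages (median 0.80 beside 0.02; 6 and 4 on TPM). In osteoclasts it raised 6 and lowered 2 (median 0.10 beside 0.01), which turned to 3 and 5 on TPM and after quantile normalization. Without LPS osteoclasts were higher for 3 and lower for 8 (median -1.14 beside 0.00). Mmp14, a membrane metalloproteinase known to cleave semaphorin 4D, rose with LPS in macrophages from 2.55 ± 0.318 to 49.6 ± 3.72 FPKM (SD, n = 3; log2 difference 3.83, limma adjusted p = 3.98e-13) and had 127 FPKM in untreated osteoclasts. Adam17, a general sheddase, rose from 39.2 to 89.4 FPKM in macrophages and was lower in osteoclasts, at 12.2 FPKM. Furin, which cuts precursors including those of the PDGF chains, rose from 30.8 to 64.5 FPKM in macrophages. Plau, the urokinase gene, fell from 492 to 125 FPKM in macrophages and had 39.8 FPKM in untreated osteoclasts.

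Efnb2 was higher in osteoclasts and fell with LPS there. Its level was 0.258, 0.354 and 0.125 FPKM in untreated macrophages and 0.0686, 0.0684 and 0.332 FPKM after LPS, from 6 to 57 reads per library. It was 4.44, 4.85 and 5.00 FPKM in untreated osteoclasts and 3.05, 3.59 and 3.36 FPKM after LPS. The macrophage groups overlapped and the osteoclast groups did not. Untreated osteoclasts were 19.4 times as high as untreated macrophages (log2 difference 2.21, SE 0.10), and with LPS the ratio was 21.3. These are a description, with no test, since Efnb2 entered the fit only through the osteoclast libraries. The LPS effect was -0.41 (SE 0.10, limma adjusted p = 0.0147) in osteoclasts and -0.11 (95% interval -0.33 to 0.11, limma adjusted p = 0.346) in macrophages. The fall in osteoclasts lost its call without untreated osteoclast replicate 3 (adjusted p = 0.0595) or LPS-treated osteoclast replicate 1 (0.0606), with a pseudocount of 0.1 (0.365) and on TPM (0.0758). In macrophages the effect was -0.50 (adjusted p = 0.03) on TPM. The interaction was -0.30 (SE 0.14, limma adjusted p = 0.092), and its sign turned with a pseudocount of 0.1 (0.02) and in voom (0.39). Only 3 of the 19 other ephrins and Eph receptors were tested, and all 3 were higher in untreated osteoclasts (median 0.94 beside 0.00). LPS raised 1 and lowered 2 of them in macrophages (median -0.69 beside 0.02) and raised 1 and lowered 1 in osteoclasts (median -0.11 beside 0.01). Efna2, which encodes an ephrin that signals between osteoclasts and osteoblasts, rose with LPS from 0.387 to 5.45 FPKM in macrophages and from 2.78 to 11.2 FPKM in osteoclasts, where Efnb2 fell. Epha2, a receptor for it, fell from 1.46 to 0.106 FPKM in macrophages and from 2.84 to 1.60 FPKM in osteoclasts. Ephb4, the usual receptor gene for ephrin B2, was at 0.194 FPKM or less in every group mean.

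Igf1 was the most abundant of the 8 genes in macrophages and among the 3 lowest in osteoclasts. Its level was 77.7, 86.0 and 88.1 FPKM in untreated macrophages and 128, 121 and 121 FPKM after LPS. In osteoclasts it was 4.87, 3.61 and 4.24 FPKM without LPS and 5.19, 2.63 and 4.38 FPKM with it. The macrophage groups were apart and the osteoclast groups overlapped, and every macrophage library was above every osteoclast library. Untreated macrophages were 19.8 times as high as untreated osteoclasts (log2 difference -4.02, SE 0.16, limma adjusted p = 1.99e-10), and with LPS the ratio was 30.3. LPS gave 0.55 (SE 0.16, limma adjusted p = 0.00752) in macrophages, but the sign turned to -0.09 (adjusted p = 0.624) on TPM and to -0.26 (adjusted p = 0.139) after quantile normalization, so its direction depended on the scaling. In osteoclasts the effect was -0.08 (95% interval -0.42 to 0.27, limma adjusted p = 0.784). The interaction was -0.63 (SE 0.22, limma adjusted p = 0.0294). It was not called without macrophage replicate 1, untreated (adjusted p = 0.067) or LPS-treated (0.0583), or without untreated osteoclast replicate 1 (0.0717) or 3 (0.053), nor on TPM (-0.07, adjusted p = 0.801), with no filter (0.0825) or with a pseudocount of 0.1 (0.0606), and after quantile normalization it was 0.14.

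Stromal markers moved with the cell type difference of Igf1. The 16 markers of stromal cells, fibroblasts or osteoblasts summed to 71.7 to 94.4 FPKM in untreated and 75.1 to 90.1 FPKM in LPS-treated macrophages, and to 1.06 to 1.72 and 1.79 to 2.90 FPKM in the osteoclast groups. In macrophages 5 of the 16 were at 1 FPKM or more in every library, led by Acta2 at a mean of 45.8 FPKM and Col1a1 at 19.9 FPKM in the untreated group, while Lum and Dcn were at 0. The 7 megakaryocyte or platelet markers, another known source of PDGF, summed to 599 to 930 FPKM in macrophages and 9.46 to 20.1 FPKM in osteoclasts, nearly all of it Pf4. The part of either list in the levels of Igf1, Pdgfa, Pdgfrb or the IGF binding proteins was not tested. On the IGF axis list 6 of 18 genes were tested, and osteoclasts were higher for 2 and lower for 4 without LPS (median -0.49 beside 0.00). LPS raised 3 and lowered 1 in macrophages (median 0.34 beside 0.02; on TPM 1 and 2, with -0.18 beside -0.55) and raised 1 and lowered none of the 6 in osteoclasts (median -0.08 beside 0.01). Igfbp4, a binding protein that restrains IGF1, had 185 ± 6.29 FPKM in untreated macrophages and 2.51 ± 0.0852 FPKM in untreated osteoclasts (SD, n = 3; log2 difference -5.73, limma adjusted p = 9.89e-14). Igfbp7, another binding protein gene, had 9.66 FPKM in untreated macrophages, which was at least 67.8-fold higher than in untreated osteoclasts. Igf2r, which encodes the receptor that carries IGF2 and lysosomal enzymes, went the other way, with 15.7 and 109 FPKM. Igf1r, the signalling receptor gene for IGF1, rose with LPS in macrophages from 1.04 to 2.26 FPKM (log2 difference 0.67, limma adjusted p = 2.75e-06) and had 0.576 FPKM in untreated osteoclasts.

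Cthrc1, whose protein is known as an osteoclast-derived signal to bone-forming cells, was near the detection limit in all 4 groups. Its level was 0.867, 0.507 and 0.507 FPKM in untreated macrophages and 0.393, 0.883 and 0.357 FPKM after LPS. It was 0.612, 0.780 and 0.850 FPKM in untreated osteoclasts and 1.01, 0.774 and 0.482 FPKM after LPS. Each library held 8 to 32 reads, and every pair of groups compared overlapped. In a fit with no filter the difference between untreated osteoclasts and macrophages was 0.11 (95% interval -0.24 to 0.46, limma adjusted p = 0.655), and that with LPS was 0.19 (95% interval -0.16 to 0.54, limma adjusted p = 0.374). The LPS effects were -0.08 (limma adjusted p = 0.782) and 0.00 (limma adjusted p = 1.0). No difference was detectable at this depth.

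Between the cell types, the 6 tested genes other than Efnb2 were all called without LPS and with it, 4 higher and 2 lower in osteoclasts each time. The shares over all tested genes were 77.8% called without LPS, with 38.8% up and 39.0% down in osteoclasts, and 83.9% called with LPS, with 40.9% up and 43.0% down. Sema4d, Sphk1, Pdgfb and Vegfa were the higher ones, apart from Vegfa without LPS on TPM, and Pdgfa and Igf1 the lower ones. The summed level of the 8 genes was 209 ± 8.58 FPKM in untreated macrophages, 273 ± 2.27 in LPS-treated macrophages, 312 ± 11.9 in untreated osteoclasts and 339 ± 17.95 in LPS-treated osteoclasts (SD, n = 3). Igf1 made up 40.1% of the sum in untreated macrophages and 1.36% in untreated osteoclasts, and Sema4d and Pdgfb together took the larger part in osteoclasts, at 52.3% and 35.9%. The LPS effects and the differences between the cell types share libraries, so each is given with its own values and they are not independent of one another.

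**Figure D4:**
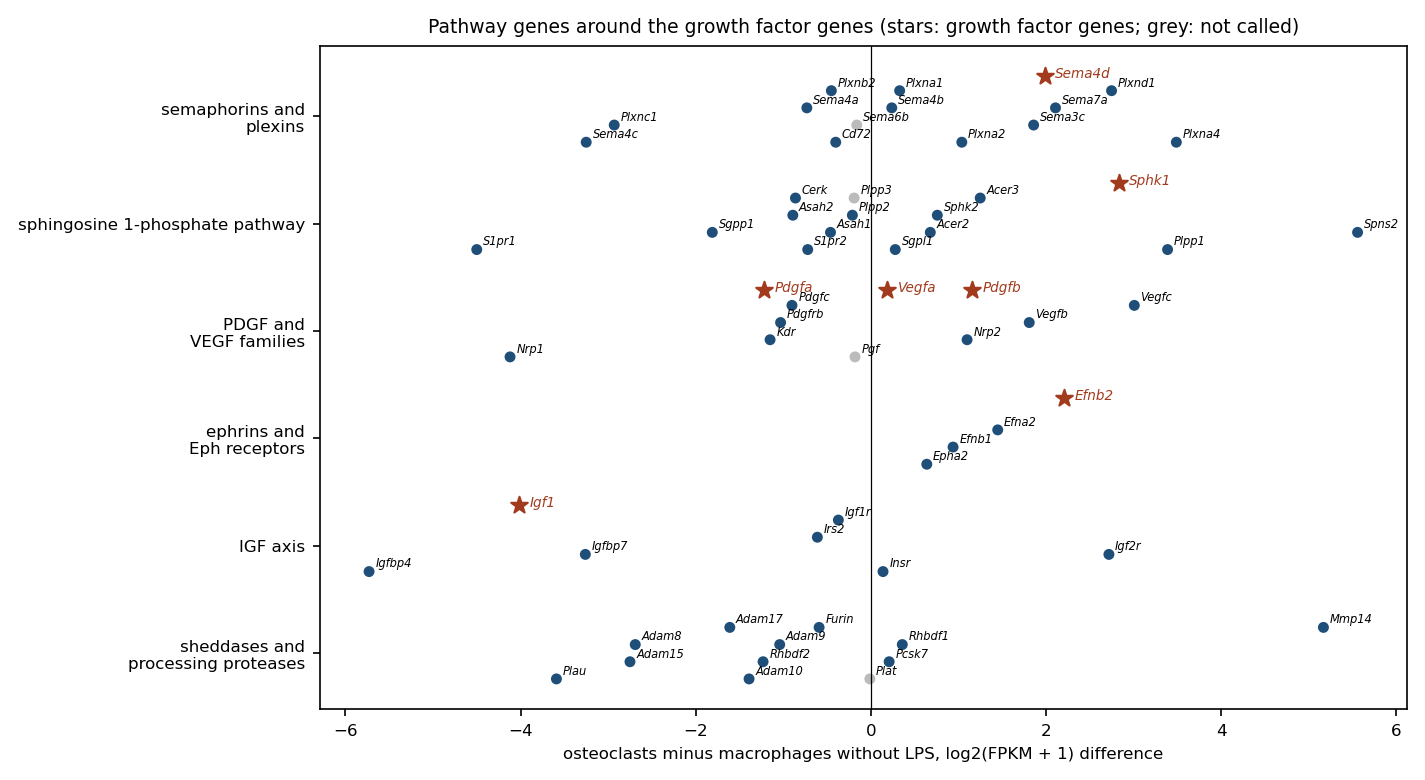
Difference between untreated osteoclasts and untreated macrophages, as log2(FPKM + 1), for the tested genes of 6 pathway lists (1 row per list) and, as stars, the 7 tested growth factor genes. Blue points were called and grey ones were not. Spns2 (5.56) and Mmp14 (5.17) lie farthest to the right, Igfbp4 (-5.73) and S1pr1 (-4.50) farthest to the left, and Sphk1 (2.83) and Igf1 (-4.02) lie on the same sides as Spns2 and Igfbp4.

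Some directions of the LPS effect in macrophages depended on how libraries were scaled. On the deposited scale the median LPS effect of all tested genes in macrophages was 0.02, and 52.6% of calls were higher. On TPM the median moved to -0.55 and 18.5% of calls were higher, and after quantile normalization these were -0.14 and 37.0%. Igf1, at -0.09 on TPM and -0.26 after quantile normalization, lay above the first of these medians and below the second, while Sema4d, at 0.26 and 0.22, lay above both. Sphk1, Vegfa and Pdgfb kept their direction and call in macrophages on both other scales, at 2.01, -1.38 and -0.96 on TPM. Without LPS the median difference between the cell types was 0.00 as deposited and -0.38 on TPM, where 29.9% of calls were higher in place of 49.9%. The interaction had a median of -0.01 with 47.0% of calls above 0 as deposited, 0.51 with 82.0% on TPM and 0.09 with 59.9% after quantile normalization. In osteoclasts the LPS effect had 62.8% of calls higher as deposited, 43.5% on TPM and 38.5% after quantile normalization.

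**Figure D5:**
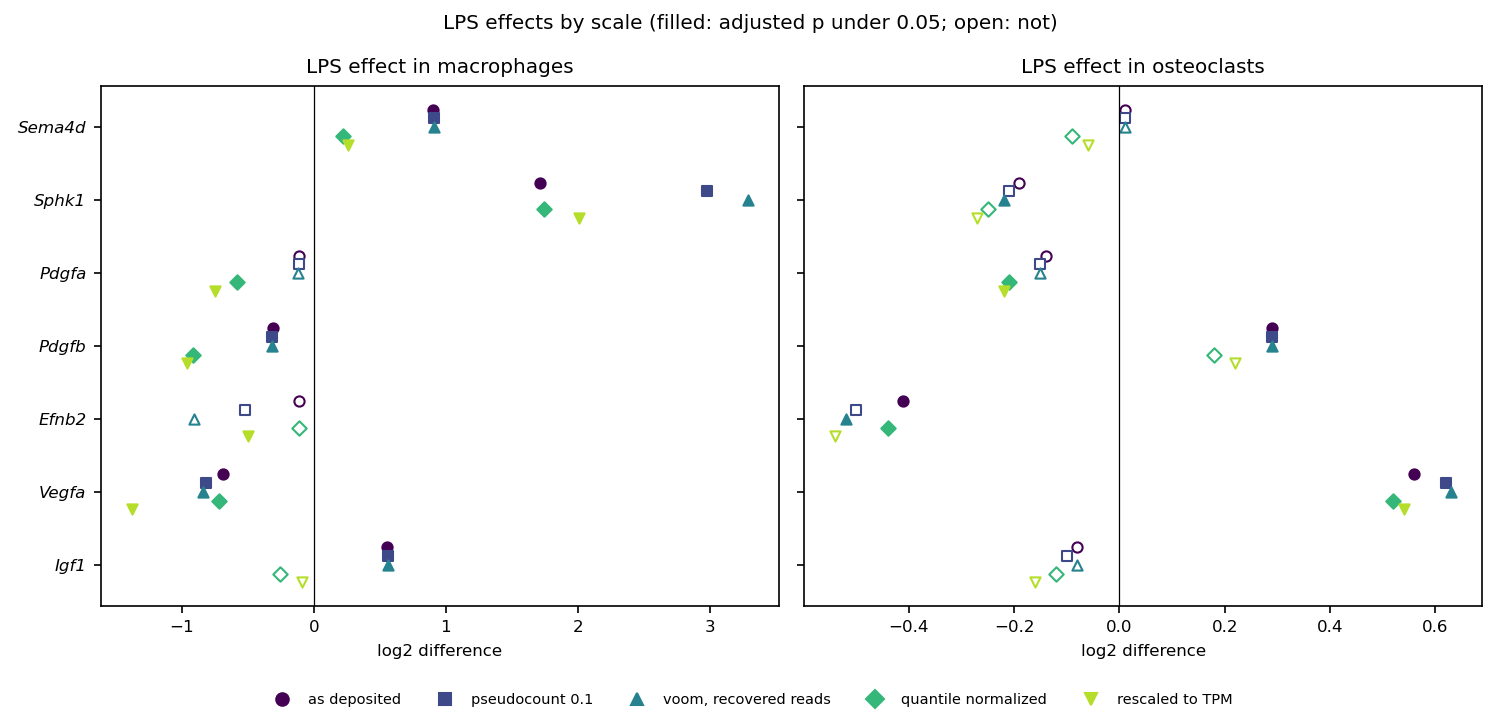
LPS effect of the 7 tested genes in macrophages (left) and osteoclasts (right) on 5 scales, as log2 differences, with filled symbols for adjusted p under 0.05 and open ones otherwise. In macrophages Igf1 lies at 0.55 as deposited, -0.09 on TPM and -0.26 after quantile normalization, and Vegfa lies below 0 on every scale.

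Genes whose pattern over the 12 libraries lay nearest to each factor were found by the root mean square difference of log2(FPKM + 1) after each gene's own mean was subtracted. Nearest to Sema4d was Ptpn12, a tyrosine phosphatase gene, at 0.063, with 19.5, 35.8, 83.8 and 82.9 FPKM in untreated and LPS-treated macrophages and untreated and LPS-treated osteoclasts. Rapgef1 (0.099) and Ctsz (0.113) came next. Nearest to Sphk1 were Anpep (0.156), Slc39a1 (0.229) and Ppargc1b (0.245), and Anpep, which encodes an aminopeptidase, had 18.2, 51.8, 142 and 127 FPKM. Nearest to Vegfa were Ippk (0.122), Fut4 (0.17) and Timm9 (0.181), and Ippk, an inositol phosphate kinase gene, had 2.62, 1.26, 2.97 and 4.46 FPKM. Among the 3 nearest to Pdgfb were Mrpl36 (0.106) and 1700021F05Rik (0.108), and nearest to Pdgfa were Vat1 (0.074), Tfe3 (0.079) and Nemp1 (0.084). Among the 3 nearest to Efnb2 were Tmem204 (0.107) and Trac (0.123). Among the 3 nearest to Igf1 were the scavenger receptor gene Cd36 (0.15) and the complement receptor gene C5ar1 (0.171), and their means lay between 21.2 and 26.0 FPKM in both osteoclast groups.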

How the data were processed

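The authors deposited 1 table of FPKM values for 54532 Ensembl genes in 12 libraries. Per the submitters' processing notes, fastp, STAR, featureCounts, DESeq2 and the mm10 build were used, with no role or order given; annotation and strand use are not given in the sources used here. The deposited FPKM values were multiples of whole reads, to within 0.02 of a read, for 96.8% of the 25854 genes above 0 at the exon length of GENCODE M21, and for 100% once a length was fitted to the others. Build and annotation are inferred from this, as is that the values are relative to the typical gene instead of to library totals, since the implied denominators departed by at most 0.0001% from such scaling. Assigned reads per library were summed from the recovered reads, and their number limits the precision of low genes.

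Genes that reached 1 FPKM in at least 3 libraries were tested with limma 3.58.1 in R 4.3.3 on log2(FPKM + 1), with 4 group means over all 12 libraries, a variance trend, two-sided tests and Benjamini-Hochberg adjustment over 11335 genes. Groups came from the sample titles. A gene was called at an adjusted p under 0.05. Genes that passed only through the group where they were high had to differ, so counts over the tested genes of a list are a description. Where every library of a group held 3 reads or fewer, folds against it are lower bounds computed from 3 reads; this covers counting error only. Tables were made with Python 3.11.15 and pandas 2.3.3. The fit was tested on simulated data. Besides the overlaps given with the results, Adam17, Bmp6, Ctf1, Ephb4, Fgf2, Furin, Hgf, Hif1a, Igfbp7, Nrp1, Pdgfra, Plxna4, Plxnb1, Sema4a, Sema4c and Spns2 share at most 9.4% of their exon bases with any 1 other gene, so their values are uncertain to that extent.

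The 8 genes, the 8 pathway lists, the 10 marker lists and the tests were chosen with earlier results of these data known. All 8 genes are named, with the 3 nearest genes by pattern, of which some are not reported here. From each list up to 3 called genes per direction and comparison were named, with a mean of at least 1 FPKM in 1 group and no overlap between groups, and receptors, sheddases, degrading enzymes and paralogues could be named whichever way they moved. Alternatives changed the scale (a pseudocount of 0.1, TPM, quantile normalization), the filter (none, or a mean of at least 5 FPKM) or the fit (just the 2 groups compared, a replicate block, library weights, no variance trend, voom on recovered reads), or left out each library in turn.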

Additional observations from a re-analysis of the deposited data

Results flagged for a closer look

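In 5 of the 7 tested genes LPS acted differently in osteoclasts and macrophages by limma's interaction test (adjusted p under 0.05), against 56.6% of all tested genes called for it. Values are given as the effect in osteoclasts minus that in macrophages on the log2(FPKM + 1) scale. Vegfa had 1.25 and Pdgfb 0.60, each with all 3 treated libraries below the untreated ones in macrophages and above them in osteoclasts. Sphk1 had -1.90 and Sema4d -0.88 (-0.32 on TPM and -0.31 after quantile normalization), with treated libraries above all untreated ones in macrophages. Igf1 had -0.63, and its call was lost under 7 of the 22 alternatives, while after quantile normalization the sign turned.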

How the results depend on the processing

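The numbers of called genes, 5 and 3 for LPS in macrophages and osteoclasts, 7 and 7 between the cell types (Efnb2 included) and 5 for the interaction, stayed within 1.5 times under every alternative listed with the processing. The genes behind a number could change. On TPM the LPS calls of Pdgfb and Efnb2 in osteoclasts were lost, and Pdgfa gained one there. With all libraries kept, 313 of 340 comparisons with an alternative kept direction and call, 11 reversed, 9 lost and 7 gained a call. With 1 library left out, 403 of 420 kept both. Reversals on TPM were Igf1 with LPS in macrophages (-0.09), Sema4d with LPS in osteoclasts (-0.06), Vegfa between untreated cell types (-0.19) and the Pdgfa interaction (0.54). After quantile normalization they were the same Igf1 and Sema4d effects (-0.26 and -0.09) and the interactions of Pdgfa (0.36) and Igf1 (0.14). The Efnb2 interaction was 0.39 in voom, 0.02 with a pseudocount of 0.1 and -0.33 (adjusted p = 0.0468) after quantile normalization. Sema4d with LPS in osteoclasts was -0.0043 with library weights. Leaving out each library in turn gave -0.04 to 0.06 for this Sema4d effect, -0.24 to 0.15 for Igf1 with LPS in osteoclasts and -0.10 to 0.03 for the Pdgfa interaction, none of them called. The cause of these reversals was not tested. Sphk1 and Efnb2 have no value at a mean of at least 5 FPKM, since fewer genes were tested there. With the replicate block the counts were again 5, 3, 7, 7 and 5, and no call changed. Deviations of libraries with the same number correlated at r -0.06 to 0.19, over 0.1 in 5 of 18 pairs, against 2 of 36 pairs with different numbers. Between untreated and LPS-treated libraries with the same number, r was 0.13, 0.15 and -0.04 in macrophages and 0.19, 0.18 and 0.01 in osteoclasts. With different numbers it ran from -0.18 to 0.06 in macrophages and from -0.26 to 0.13 in osteoclasts. Since not every pair with the same number was over 0.1, and not every library correlated best with its own number, the numbers were not taken to pair them. A pairing within a cell type is not excluded by this. Depth limits Cthrc1, at 8 to 32 reads per library, and Efnb2 in macrophages, at 6 to 57.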

Other observations

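Other genes for factors described as passing from osteoclasts or macrophages to bone-forming cells were given by a list of 23, of which 12 were tested. LPS raised 7 and lowered 3 in macrophages (median log2 difference 0.40 beside 0.02 over all genes), or 5 and 6 on TPM (-0.15 beside -0.55) and after quantile normalization (-0.21 beside -0.14). It raised 3 and lowered 1 in osteoclasts (0.06 beside 0.01), or 3 and 3 after quantile normalization. Untreated osteoclasts were higher than untreated macrophages for 6 and lower for 6 (0.14 beside 0.00). This median was -0.27 beside -0.38 on TPM and -0.11 beside 0.03 after quantile normalization. Lif, a cytokine gene of the interleukin 6 family, had 0.504 ± 0.243 FPKM in untreated and 3.98 ± 0.799 FPKM in LPS-treated macrophages, and 25.4 ± 0.822 and 29.6 ± 2.03 FPKM in untreated and LPS-treated osteoclasts (SD, n = 3). Its LPS effect was called in macrophages (1.73, limma adjusted p = 8.52e-08) and not in osteoclasts (0.21, limma adjusted p = 0.271), with an interaction of -1.51 (limma adjusted p = 1.25e-05). Hbegf, an epidermal growth factor family ligand gene, rose with LPS in osteoclasts from 9.02 ± 0.546 to 20.9 ± 1.83 FPKM (SD, n = 3; 1.13, limma adjusted p = 1.43e-05) and was at 2.85 and 2.35 FPKM in untreated and LPS-treated macrophages (-0.19, limma adjusted p = 0.126). The Hbegf interaction was 1.32 (limma adjusted p = 1.28e-05), above 0 as for Vegfa and Pdgfb.

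C3, a complement gene, rose in both cell types, from 2.22 to 92.5 FPKM in macrophages and from 6.58 to 49.5 FPKM in osteoclasts. Fgf2 and Hgf, growth factor genes with low levels, had 2.76 and 2.08 FPKM in untreated and 0.288 and 0.508 FPKM in LPS-treated macrophages, given with no test, since the untreated macrophages brought them into the fit. Cxcl16 rose from 35.9 to 164 FPKM in macrophages, although 18.3% of its exon bases are shared with Zmynd15 on the opposite strand. Wnt10b, Bmp6, Slit3 and Ctf1, which are named in work on osteoclast-derived signals, were at 0.206 FPKM or less in every group mean.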
